A study of Mus musculus with 8 samples.

Results

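The collagen gene family was examined in RNA-seq libraries of the mouse utricle, a gravity-sensing organ of the inner ear. Its members were all genes whose symbol in the authors' table of normalized counts has the form Col, a number, a and a number. This gave 43 genes of 21369 in that table, and 41 of them reached the level needed for testing, which was at least 10 reads in at least 4 libraries. The genes that did not were Col10a1 and Col17a1. There were 4 libraries from embryos with the genotype Rest(+/deltaExon4), called mutant here, in which exon 4 of Rest is deleted on a single allele, and 4 from wild-type embryos. All came from the strain C57BL/6 at embryonic day E15.5 per their labels, except that those of wild-type replicate 4 read C57BL/7 and E15.6. The titles of the mutant libraries call them knockouts, whereas the genotype label gives a heterozygous deletion. Each library held RNA pooled from 7 to 9 mice, so a library averages over animals, and the labels tie the deletion to no cell type. Nothing in the labels says whether the pools of a group were collected on separate occasions, so p-values measure only the spread between pools.

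Collagens are secreted proteins built of 3 chains wound into a triple helix. Fibrillar collagens assemble into the banded fibrils of connective tissue, network collagens such as type IV form the sheet of basement membranes, and fibril-associated collagens with interrupted helices (FACIT) sit on the surface of fibrils. In the inner ear, types II, IX and XI also form fibrils in the tectorial membrane and otic capsule, and type IV lies under the sensory epithelium and around vessels. In bulk tissue, fewer cells of a type and less RNA per cell cannot be told apart.

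The sequence at the start of 2 groups of members is shown first, because the deposited counts are given per gene and cannot separate transcripts that begin at different starts. RefSeq promoter windows (GRCm38.p6, 250 bases before to 50 after a start) were matched for 34 of the 43 members, with 37 windows in all. Col9a1, whose product is a chain of the FACIT collagen type IX, had 2 starts 17593 bases apart on chromosome 1. The upstream start is known as that of the long form in cartilage, and the downstream start as that of a short form in other tissues. The bases before each start are printed 5′ to 3′, with capitals marking a match to any of the motifs listed below.
Col9a1 upstream start, chr1:24177360-24177609, plus strand: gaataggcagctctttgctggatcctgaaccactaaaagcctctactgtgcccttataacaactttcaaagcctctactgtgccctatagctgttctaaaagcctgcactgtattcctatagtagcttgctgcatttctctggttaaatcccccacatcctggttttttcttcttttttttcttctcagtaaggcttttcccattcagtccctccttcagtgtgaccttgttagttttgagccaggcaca
Col9a1 downstream start, chr1:24194953-24195202, plus strand: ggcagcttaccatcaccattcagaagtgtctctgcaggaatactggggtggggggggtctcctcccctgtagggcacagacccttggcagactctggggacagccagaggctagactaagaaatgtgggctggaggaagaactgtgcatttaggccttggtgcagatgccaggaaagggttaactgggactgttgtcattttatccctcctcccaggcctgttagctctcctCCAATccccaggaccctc
Col4a1 and Col4a2, which encode the main chains of the type IV network, are transcribed away from each other on chromosome 8, and in GENCODE M21 (GRCm38) their annotated ends overlap by 22 bases. This stretch is printed on the strand of each gene, with capitals marking the match to the GC box.
Col4a1 side, chr8:11312805-11312826, minus strand: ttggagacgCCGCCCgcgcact
Col4a2 side, chr8:11312805-11312826, plus strand: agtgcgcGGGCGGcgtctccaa
The motifs were searched on both strands of each 300-base window. The GC box GGGCGG was found in 22 of the 37 collagen windows (59.5%) and in 35.7% of all 32851 windows. The CCAAT box was found in 13 (35.1%) against 37.4% of all windows, and the letters TATAAA in 5 (13.5%) against 13.6%. TTCAGCACC, the left part of the RE1 element that REST binds, was in 0 of the collagen windows and in 0.371% of all windows. A match or its lack describes these letters in these windows only.

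Each library had 20.4 to 24.6 M read pairs on genes. Read pairs outside genes made up 11.9% to 18.3% of the mutant and 18.4% to 22.2% of the wild-type libraries, which did not overlap. The 6 red blood cell markers summed to 6344 CPM (counts per M of library size, scaled by TMM, the trimmed mean of M values) in wild-type replicate 4 and to 497 to 788 CPM in the other libraries. Libraries also differed with the GC content of the transcript: among the 10% of genes with the highest GC content (57.6% or more), mutant replicates 1 and 3 lay 0.14 above the gene mean on the log2 scale, and wild-type replicates 1 and 2 lay 0.13 below it. Mutant replicates 2 and 4 lay at 0.04 and -0.03, and wild-type replicates 3 and 4 at 0.08 and -0.01. Rest, the targeted gene, averaged 127 ± 3.20 CPM in mutant against 116 ± 7.51 CPM in wild-type libraries (SD, n = 4 per genotype, adjusted p = 0.457 by edgeR), which does not check a deletion of a single exon. Of 80 genes tested in 13 cell type marker lists, 4 were lower past the threshold in the mutant libraries, against 1% of all genes. These were the neuronal Nefl and Nefm, Otof of the hair cell list and Smpx of the otoconia and roof list. In the other direction 1 was higher, the muscle gene Myog, against 0.146% of all genes. The 8 hair cell markers did not move one way, with 2 higher and 2 lower at an unadjusted p under 0.05.

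Collagen genes took 0.477% ± 0.041 of the read pairs on genes in mutant and 0.426% ± 0.050 in wild-type libraries (SD over 4 libraries per genotype). The shares in mutant replicates 1 to 4 were 0.448%, 0.521%, 0.501% and 0.438%, and in wild-type replicates 1 to 4 they were 0.387%, 0.378%, 0.469% and 0.469%. The groups overlapped, with wild-type replicates 1 and 2 the lowest of all. The 95% interval of each share (Wilson, counting error only) reached at most 0.00299 percentage points to either side, narrower than the spread between libraries. The 11 fibrillar members held 0.264% ± 0.029 and 0.266% ± 0.013. The 7 cartilage members, which include the fibrillar genes Col2a1, Col11a1 and Col11a2, held 0.208% ± 0.033 and 0.160% ± 0.043. The 9 basement membrane members held 0.051% ± 0.004 and 0.039% ± 0.010.

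**Figure D1:**
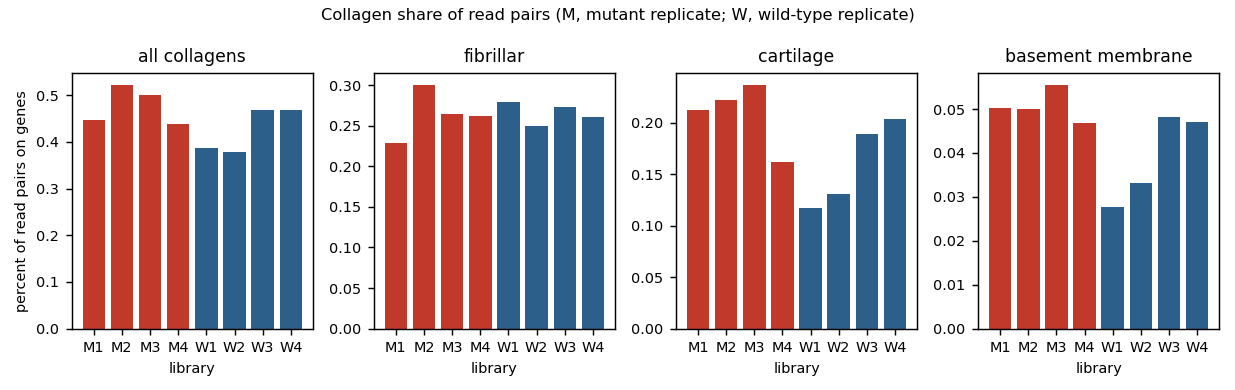
Bars give the percent of read pairs on genes that fell on all 43 collagens, 11 fibrillar, 7 cartilage and 9 basement membrane genes, in each mutant (M, red) and wild-type (W, blue) library, with genes of more than 1 class counted in each. The fibrillar bars lie between 0.228% and 0.300% in both genotypes, whereas the cartilage and basement membrane bars are lowest in wild-type replicates 1 and 2.

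Levels per length were given as CPM per kilobase of exon (RPKM). Over the 8 libraries, 10 members had a mean of at least 10 RPKM, 16 were between 1 and 10, and 17 were under 1 RPKM. The first 3 members, Col9a1, Col3a1 and Col1a2, held 54.2% of the summed level of the family, and the first 9 held 87.8%. Col9a1 led with 186 ± 55.3 RPKM (SD, n = 8), which was 30.1% of the family. Col3a1 (80.2 ± 4.78) and Col1a2 (68.1 ± 10.5 RPKM), fibrillar chains of loose connective tissue, followed, with ranges that overlapped. Next came Col9a3 (47.5 ± 23.7), Col2a1 (44.0 ± 10.1) and Col1a1 (38.7 ± 13.3 RPKM), also with overlapping ranges. Col18a1 (28.4 ± 8.36), Col9a2 (27.6 ± 5.09) and Col4a1 (21.2 ± 4.68 RPKM) overlapped in range as well, and Col11a1 (13.2 ± 1.96 RPKM) closed the group above 10 RPKM. With the length of the longest transcript in place of all exons, Col1a2 passed Col3a1 and Col2a1 passed Col9a3, while Col9a1 stayed first. Col26a1 then stood at 21.2 RPKM, against 7.21 RPKM with all exons, and so joined the group above 10 RPKM.

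**Figure D2:**
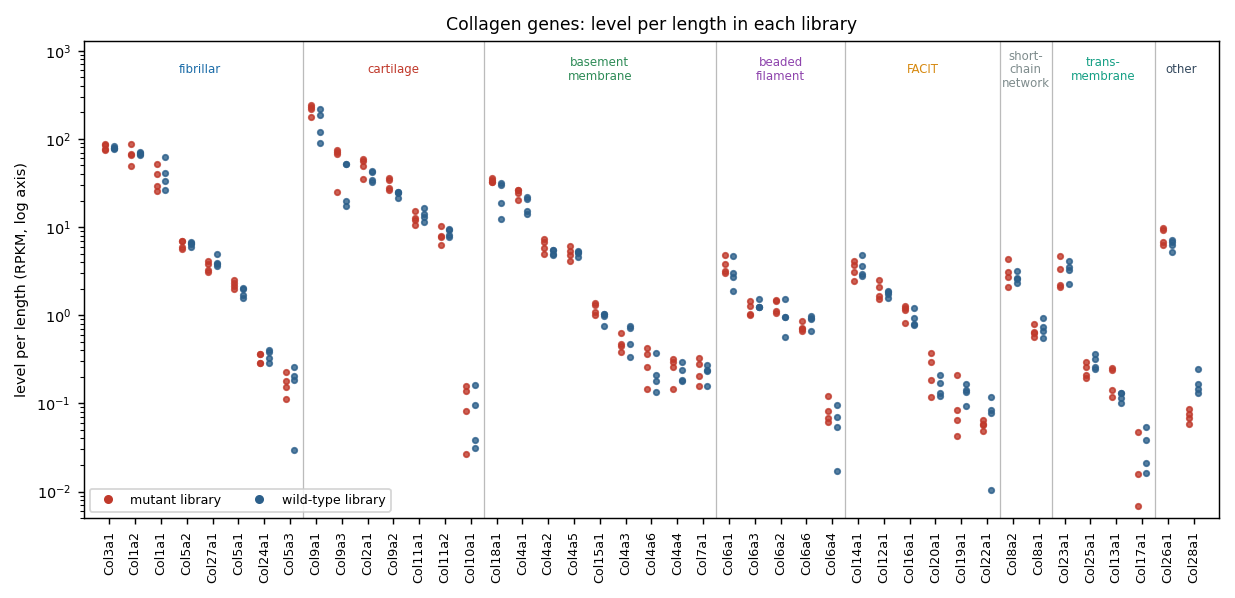
Points give the level of each of the 43 collagen genes in RPKM on a log axis, in mutant (red) and wild-type (blue) libraries, grouped by class. A gene of more than 1 class is drawn once, cartilage before others, and Col17a1 in mutant replicate 1 was at 0 and has no point; Col9a1 stands highest, and 17 genes have a mean under 1 RPKM.

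Across all 17067 genes tested, 196 passed an adjusted p of 0.05 (1.15%), of which 25 were higher (0.146%) and 171 lower (1%) in the mutant libraries (edgeR quasi-likelihood test, Benjamini-Hochberg over all genes). None of the 41 collagens passed by this test, in either direction. The lowest adjusted p was 0.157, for Col9a2. In simulated counts of 2 groups of 4 libraries, this test recovered 29% of 200 genes changed 1.5-fold. It recovered 72.5% of 200 genes changed 2-fold, so the lack of a call does not show the lack of a change. The changed genes were drawn only from genes above a minimum mean read count. The recovered shares therefore do not cover members on few reads, such as Col28a1 with 7 to 26 reads per library. At an unadjusted p under 0.05 there were 7 collagens (17.1%), against 13.3% of all genes: 6 were higher, against 5.44% of all genes, and 1 lower, against 7.9%. Limma-voom called 0 collagens and 1.35% of all genes, and DESeq2 called 1, Col9a2, at an adjusted p of 0.0382, and 3.3% of all genes. The log2 change from wild-type to mutant was positive for 23 and negative for 18 members, with a median of 0.10, and 49.4% of all genes had a positive value, with a median near 0. The levels of mutant and wild-type libraries did not overlap for 3 members (7.32%), against 7.87% of all genes, a share near the background. Of these, Col9a2 and Col18a1 were higher (3.02% of all genes) and Col28a1 was lower (4.85%).

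**Figure D3:**
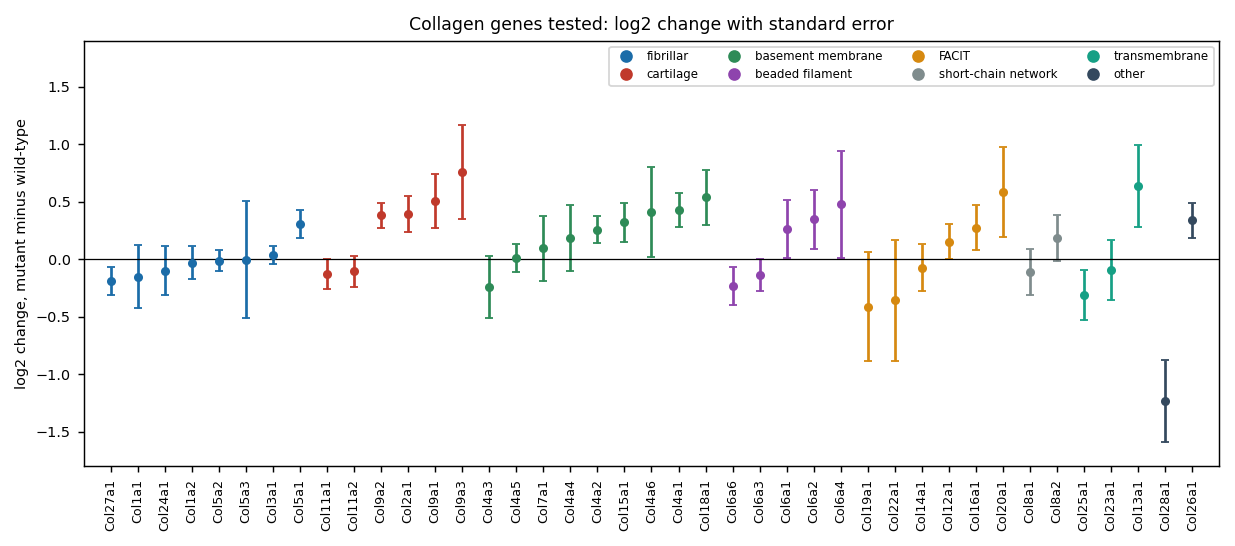
Points give the log2 change, mutant minus wild-type, of the 41 collagen genes tested, with bars of 1 standard error, coloured by class and sorted within it. The 9 basement membrane genes lie above 0 except Col4a3, most fibrillar genes lie near 0, and Col28a1 is the lowest at -1.24.

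Among the chains of type IX collagen, Col9a2 (chromosome 4, 121039385 to 121055322, plus strand) was at 112, 86.1, 106 and 82.5 CPM in mutant replicates 1 to 4. In wild-type replicates 1 to 4 it was at 76.9, 65.5, 75.7 and 78.0 CPM. Every mutant library lay above every wild-type library. The log2 change was 0.38 ± 0.11 (SE), a ratio of 1.30 (edgeR adjusted p = 0.157), and it was 0.39 by DESeq2. Over the alternatives tried, its adjusted p ran from 0.0382 to 0.332.

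Col9a1, the partner chain printed above (chromosome 1, 24177610 to 24252684, plus strand), was at 1112, 1243, 1177 and 895 CPM in mutant replicates 1 to 4. It was at 453, 612, 939 and 1104 CPM in wild-type replicates 1 to 4. The wild-type values spanned more than the gap between the groups, and wild-type replicate 4 reached the level of mutant replicate 1. The log2 change of 0.51 ± 0.24 did not pass (edgeR adjusted p = 0.386), and it ran from 0.33 (wild-type replicate 1 left out) to 0.73 (wild-type replicate 4 left out). Col9a3 (chromosome 2, 180597790 to 180622189, plus strand) was at 274, 260, 290 and 96.9 CPM in mutant replicates and at 66.7, 76.0, 200.1 and 201 CPM in wild-type replicates 1 to 4. Its values fell into a low set (mutant replicate 4, wild-type replicates 1 and 2) and a high set in both genotypes. Its log2 change was 0.76 ± 0.41 (edgeR adjusted p = 0.455), the largest positive value in the family, and it ran from 0.53 without wild-type replicate 1 to 1.01 without mutant replicate 4. Exons of Col9a3 overlap those of Tcfl5 over 6.07% of their length, and without strand a read pair in that stretch cannot be assigned to 1 gene.

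Col2a1, the fibril-forming chain of cartilage (chromosome 15, 97975602 to 98004695, minus strand), was at 460, 514, 548 and 329 CPM in mutant replicates 1 to 4. It was at 297, 315, 395 and 399 CPM in wild-type replicates 1 to 4, so mutant replicate 4 lay inside the wild-type range. The log2 change was 0.39 ± 0.16 (unadjusted p = 0.0286, adjusted p = 0.323 by edgeR). Col11a1 and Col11a2, which encode the chains that set fibril width with type II, had changes of -0.13 and -0.11. Col11a1 ranged from 133 to 194 CPM in mutant and from 147 to 208 CPM in wild-type libraries. Col10a1, the collagen of hypertrophic cartilage, was at 0.083 to 0.507 CPM in all 8 libraries, on 2 to 12 reads. The 6 cartilage members tested had a median change of 0.39, with 4 positive and 2 negative values.

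The 8 chondrocyte markers, other genes of cartilage cells, summed to 262 to 381 CPM in mutant and to 271 to 354 CPM in wild-type libraries. Cnmd made up most of this sum, while the cartilage proteoglycan gene Acan was at 1.40 to 4.03 CPM, Matn1 at 2.36 to 9.04 CPM, and Snorc at 0 to 0.245 CPM. Of the 7 markers tested, 0 passed the threshold, against 1.15% of all genes.

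**Figure D4:**
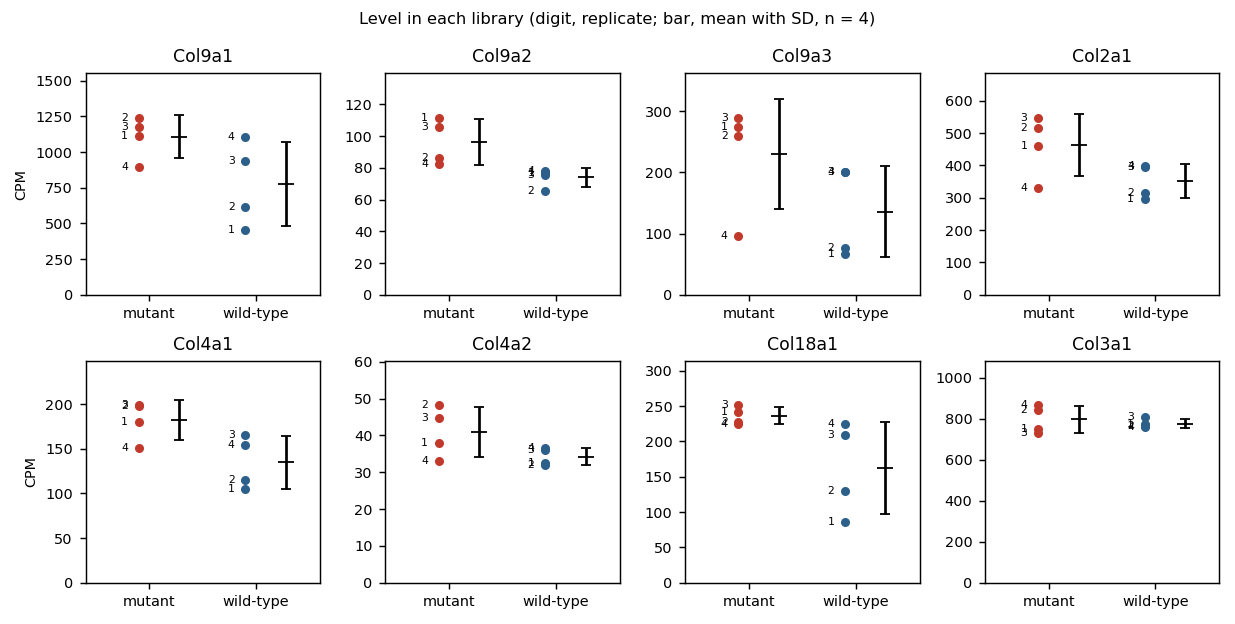
Points give the level in CPM of 8 collagen genes in each library, with the replicate number beside each point and the mean with SD (n = 4) beside each group. In Col9a1, Col9a3, Col2a1, Col4a1 and Col4a2 the lowest 3 points are mutant replicate 4 and wild-type replicates 1 and 2, while Col3a1 stays between 731 and 865 CPM.

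In the basement membrane class, 8 of the 9 members had a positive change, with a median of 0.26. Their summed level averaged 514 ± 33.6 CPM in mutant against 384 ± 94.8 CPM in wild-type libraries (SD over 4 libraries per genotype), which is 1.34 times as high. Col18a1 and Col4a1 carried this sum, and the other 7 members together averaged 95.2 ± 9.98 and 86.4 ± 2.13 CPM, 1.10 times as high, with overlapping groups. On the CPM scale the sums of all 9 did not overlap, with 470.2 as the lowest mutant and 464 as the highest wild-type value, but as a percent of read pairs on genes they did. Col4a1 (chromosome 8, 11198423 to 11312826, minus strand) was at 180, 198, 198 and 151 CPM in mutant replicates and at 105, 115, 165 and 155 CPM in wild-type replicates 1 to 4. Only mutant replicate 4 lay inside the wild-type range. Its log2 change was 0.43 ± 0.15 (unadjusted p = 0.0147, adjusted p = 0.256 by edgeR).

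Col4a2, its divergent neighbour, was at 38.0, 48.1, 44.7 and 33.1 CPM in mutant replicates 1 to 4. In wild-type replicates 1 to 4 it was at 32.4, 32.0, 36.1 and 36.5 CPM, with a change of 0.26 ± 0.12 (edgeR adjusted p = 0.385). The order of the libraries was similar in both genes of the pair, with mutant replicates 2 and 3 highest. The ends of the pairs Col4a4 and Col4a3 lie 72 bases apart and those of Col4a6 and Col4a5 1309 bases apart, also divergent. Their changes were 0.18 and -0.25, and 0.41 and 0.01, all on levels under 1 RPKM except for Col4a5 (5.08 RPKM). Col18a1 (chromosome 10, 77052178 to 77166548, minus strand), whose product carries the endostatin domain, was at 241, 228, 251 and 225 CPM in mutant replicates 1 to 4. In wild-type replicates 1 to 4 it was at 86.6, 130, 209 and 224 CPM. The mutant libraries were close together and the wild-type libraries were not, and the groups were separated by 1.24 CPM. The change was 0.54 ± 0.24 (unadjusted p = 0.0466, adjusted p = 0.370 by edgeR), and leaving out 1 library put it between 0.34 (wild-type replicate 1) and 0.73 (wild-type replicate 4).

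The fibrillar class differed little between genotypes in its median change, which was -0.03, and 3 of its 11 members were positive. At an unadjusted edgeR p under 0.05, 2 members (18.2%) were higher, Col2a1 and Col5a1, against 5.44% of all genes. At that p 0 members were lower, against 7.9% of all genes. Col3a1 (chromosome 1, 45311538 to 45349706, plus strand) stood at 751, 844, 731 and 865 CPM in mutant replicates and at 773, 765, 806 and 762 CPM in wild-type replicates 1 to 4. It varied least of all members, with a highest library 1.18 times the lowest, and changed by 0.04 ± 0.08. Col1a2, a chain of type I collagen, was at 616, 1094, 807 and 835 CPM in mutant replicates and at 890, 870, 811 and 845 CPM in wild-type libraries. Col1a1, its partner chain, ranged from 166 to 344 CPM in mutant and from 173 to 413 CPM in wild-type libraries, highest in wild-type replicate 1. The 6 markers of osteoblasts, which make much type I collagen, summed to 47.5 to 128 CPM in mutant and 45.9 to 84.7 CPM in wild-type libraries, with Bglap at 0 to 0.245 CPM. Col5a1, which nucleates type I fibrils, was at 19.7, 21.1, 18.3 and 16.9 CPM in mutant replicates 1 to 4. In wild-type replicates it was at 16.9, 14.3, 17.2 and 13.2 CPM, a change of 0.30 ± 0.12 (unadjusted p = 0.0314, adjusted p = 0.329 by edgeR). Mesenchyme markers summed to 1730 to 2171 CPM in the mutant and 1733 to 2165 CPM in the wild-type group. Coch made up most of this sum, with means of 1683 and 1669 CPM. Of the 7 markers tested, 1 was higher at an unadjusted edgeR p under 0.05 and 0 were lower. The higher marker was Pou3f4, with means of 105 and 86.3 CPM.

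Of the remaining classes, the 5 beaded filament members (type VI, microfibrils near cell surfaces) had changes of -0.23 to 0.48. Col6a4 had the largest, on 0.145 to 1.03 CPM (edgeR adjusted p = 0.694). Its change was 0.18 without wild-type replicate 4, 0.24 without mutant replicate 1 and 0.80 without wild-type replicate 3. The 9 FACIT members include the type IX chains and had a median of 0.27. Of the others, Col12a1 and Col14a1, which coat type I fibrils, were at 28.2 ± 4.98 and 24.1 ± 5.52 CPM over all 8 libraries. Their changes were 0.15 and -0.07. Among the short-chain network collagens, Col8a2 had the largest change, 0.18 ± 0.20, which was -0.02 without mutant replicate 2. Of the 3 transmembrane members tested, Col13a1 had the largest change, 0.64 ± 0.36, on 0.467 to 1.16 CPM (edgeR adjusted p = 0.471). Col17a1, a hemidesmosome collagen, was at 0 to 0.323 CPM.

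Col26a1, which belongs to none of these classes, was at 76.0, 51.3, 80.4 and 55.9 CPM in mutant replicates 1 to 4. In wild-type replicates 1 to 4 it was at 42.9, 51.3, 55.6 and 58.4 CPM. The change was 0.34 ± 0.15 (unadjusted p = 0.0477, adjusted p = 0.371 by edgeR), and mutant replicates 2 and 4 lay inside the wild-type range. Col28a1 (chromosome 6, 7997808 to 8192617, minus strand), known from peripheral nerve, was the member with the largest change in either direction. It was at 0.428, 0.334, 0.375 and 0.286 CPM in mutant replicates and at 0.722, 1.20, 0.646 and 0.820 CPM in wild-type replicates 1 to 4. These levels rest on 7 to 26 reads per library, and the groups did not overlap. The log2 change was -1.24 ± 0.36 (unadjusted p = 0.00529, adjusted p = 0.169 by edgeR). Schwann cell markers summed to 299 to 396 CPM in the mutant and 301 to 366 CPM in the wild-type group. Neuron markers summed to 315 to 374 CPM and 505 to 703 CPM. Nefm (mean 100 CPM in mutant, 253 in wild-type) and Nefl (72.3 and 134 CPM) carried most of the difference in the neuron sum. Among its other members, Isl1 averaged 147 and 146 CPM, and Elavl3 1.32 and 1.43 CPM. Tubb3 averaged 17.6 and 27.4 CPM, and Prph 5.21 and 16.7 CPM, with wild-type replicate 3 at 61.9 and 48.6 CPM. The part of Schwann cells or neurons in the Col28a1 value was not tested.

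A pattern across libraries, chosen after the values were seen, ran through several members. Mutant replicate 4 and wild-type replicates 1 and 2 were the lowest 3 libraries for Col9a1, Col9a3, Col2a1, Col4a1 and Col4a2, 5 of 41 members (12.2%), against 5.76% of all genes tested. The collagens tested had a median transcript GC content of 55.2%, against 49.3% for all genes, and 16 of 41 fell among the 10% of genes with the highest GC content. Among those genes the median change was 0.13 and 70.3% of all genes had a positive change. Wild-type replicates 1 and 2 and mutant replicate 4 were also the lowest 3 libraries there, with median deviations of -0.13, -0.13 and -0.03. Of the 16 collagens there, 12 were positive, with a median of 0.29. Of the other 25 collagens, 11 were positive, with a median of -0.03. A correction of each library for GC content, added after seeing the data, called 0 collagens and 237 of all 17067 genes. It moved the change of Col9a2 from 0.38 to 0.21, that of Col2a1 from 0.39 to 0.25, that of Col4a2 from 0.26 to 0.15 and that of Col26a1 from 0.34 to 0.23, while Col4a1 was then at 0.41, Col9a1 at 0.56, Col9a3 at 0.71 and Col18a1 at 0.46. The class medians were then 0.23 for cartilage, 0.23 for basement membrane and -0.05 for fibrillar members, with a median of 0.06 over all genes.

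**Figure D5:**
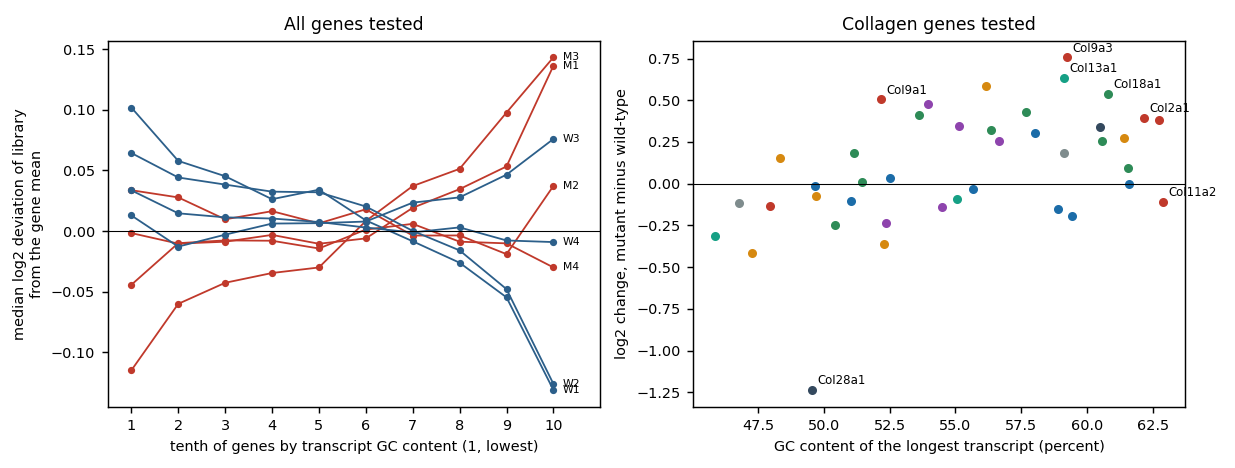
The left panel gives each library's median log2 deviation from the gene mean in 10 equal bins of all genes tested, ordered by transcript GC content (M and red, mutant; W and blue, wild-type). The right panel gives the log2 change of the 41 collagens tested against GC content, coloured by class as in the plot of changes; the libraries spread apart in the bin with the highest GC content, which holds 16 collagens.

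The RNA levels of genes whose chains share a trimer were compared per length in each library. Such an RNA ratio depends on the length used and does not measure the ratio of protein chains. Col1a1 and Col1a2, which are known to pair at a 2 to 1 ratio of chains in type I collagen, stood at a ratio of 0.563 ± 0.152 (SD, n = 8), and at 0.268 with the longest transcript as length. Col4a1 to Col4a2, whose protein trimer also holds 2 chains to 1, was 3.71 ± 0.464. Within type IX, Col9a1 to Col9a3 was 3.09, 3.63, 3.09 and 7.03 in mutant and 5.17, 6.12, 3.57 and 4.18 in wild-type replicates 1 to 4. The ratio was highest in mutant replicate 4 and next in wild-type replicates 2 and 1, the libraries where Col9a3 was low. Col6a1 to Col6a3 was 2.73 ± 0.848, Col11a1 to Col11a2 was 1.58 ± 0.170, and Col5a1 to Col5a2 was 0.317 ± 0.054. In all 8 ratios examined the mutant and wild-type ranges overlapped.

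Genes that fold, process, bind and degrade collagen were taken from 7 lists. None of their members passed the threshold by edgeR in either direction, with 4 higher and 1 lower at an unadjusted p under 0.05 among 21 chain folding and modification genes tested, and 4 higher and 2 lower among the 66 tested in the other lists. Of all genes, 1.15% passed the threshold, and 5.44% were higher and 7.9% lower at that p. The chain folding list, which holds hydroxylases and chaperones of the endoplasmic reticulum, had a median change of 0.12. Its summed level was 4587, 4561, 4736 and 4443 CPM in mutant and 4170, 4162, 4132 and 4052 CPM in wild-type replicates 1 to 4, and the groups did not overlap. Serpinh1, a collagen chaperone, gave 312 of the 452 CPM between the group means, and without it the list's sums overlapped (2302 to 2627 and 2275 to 2474 CPM). The smallest p in the list belonged to P3h1, a prolyl 3-hydroxylase, at 25.9 ± 2.75 against 19.8 ± 1.70 CPM (SD over 4 libraries, log2 change 0.38 ± 0.11, edgeR adjusted p = 0.169). DESeq2, which called 3.3% of all genes, called 2 of this list, P3h1 and Serpinh1, and 0 in the other 6 lists.

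In the other lists the member with the smallest p was Loxl1 among 14 propeptide processing and crosslinking genes (adjusted p = 0.261) and Matn4 among 16 fibril-associated proteins (0.384). It was Lair1 among 9 collagen receptors (0.335), Timp2 among 9 degradation genes (0.304) and Agrn among 14 basement membrane partners (0.398). Among 4 regulators of cartilage collagens it was Sox6 (0.231), with all these values by edgeR. Lair1 and Sox6 were lower in the mutant libraries (log2 change -0.65 and -0.45). Loxl1, Matn4, Timp2 and Agrn were higher (0.60, 0.37, 0.56 and 0.16). The laminin, nidogen and perlecan partners of type IV collagen together with agrin, summed to 569 to 650.1 CPM in the mutant and 570.3 to 632 CPM in the wild-type group. Endothelial markers summed to 165 to 190 CPM and 164 to 184 CPM.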

How the data were processed

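The authors deposited gene counts per library, whole numbers of read pairs that are not normalized. The submitters' processing notes name STAR 2.5.2a, DESeq2 with no version, and the build GRCm38.p4. A second deposited table, of normalized counts (a signal, each count divided by its library's size factor), covers 7 libraries, without wild-type replicate 4. It gave the member symbols, and 100% of its values came back as whole reads (tolerance 0.001 reads) equal to the deposited counts. The libraries were made from oligo-dT-primed, amplified and tagmented cDNA, per the labels' protocols. Lines that name no gene held 25.2% to 33.9% of read pairs and were left out. The members and gene lists were chosen with earlier results of these data known.

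The unstranded counts of genes with at least 10 reads in 4 or more libraries were scaled by TMM factors and compared with edgeR 4.0.16 (R 4.3.3, quasi-likelihood test, Benjamini-Hochberg over 17067 genes, threshold 0.05), which was tested on simulated data. CPM used TMM-scaled library sizes, and RPKM the union of exons in GENCODE M21. Of 48823 genes counted, 48349 were found there. Alternatives were DESeq2 1.42.0, limma-voom 3.58.1, other scalings and filters, summed strand columns, leaving out each library, a replicate block, a GC correction (a loess fit with span 0.4) and the authors' 7 libraries. For members with many reads, precision is limited by the spread between 4 libraries a group more than by depth, 20.4 to 24.6 M read pairs. For members on few reads, such as Col28a1 with 7 to 26 reads per library, counting error limits it too. A level under 3 reads (0.121 to 0.145 CPM) is near the limit of detection.

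Collagens named with tests are those with an unadjusted p under 0.05 and the member with the largest change in each class. Col9a1 and Col4a2 were added after their values were seen. Levels are given for the leading members of each class and for those not tested. Of the pathway lists, the member with the smallest p is named.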

Additional observations from a re-analysis of the deposited data

Results flagged for a closer look

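Of 120 groups of 4 libraries examined (members and class sums, in mutant or wild-type libraries, and chain ratios), 5 had 1 library far from the other 3. Chance alone flags about 1 in 20 such groups. Col9a3 in mutant replicate 4 stood at 96.9 CPM, where the remaining mutant libraries had 260 to 290 CPM. The same library had the outlying chain ratios, 7.03 for Col9a1 to Col9a3 (others 3.09 to 3.63) and 1.06 for Col9a2 to Col9a3 (others 0.412 to 0.509), which share the Col9a3 value. Col6a3, a chain of type VI collagen, stood at 18.1 CPM in wild-type replicate 4, where the remaining ones of that group had 14.9 to 15.0 CPM. The summed level of the beaded filament class was 58.2 CPM in mutant replicate 2 and 44.2 to 46.1 CPM in the remaining mutant libraries.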

How the results depend on the processing

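Over the 18 alternatives tried, no collagen gene passed the threshold except Col9a2 under DESeq2 (1 higher, log2 change 0.39, adjusted p = 0.0382), and leaving out each library in turn gave 0 in each direction. DESeq2 also called 2 chain folding genes, where edgeR called none; the cause was not tested. Of all genes, DESeq2 called 564, edgeR without any scaling factor 248, and edgeR without 1 library 118 to 166, against 196. Scaling by library size alone moved the median of all genes to -0.05. The replicate numbers are shared between titles only: deviations of same-numbered libraries correlated at 0.028, -0.096, 0.024 and -0.094. A fit with a replicate block called 96 genes of all and 0 collagens, with a family median of 0.13.

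The family median ran from -9.46e-06, without mutant replicate 2, to 0.20, without wild-type replicate 1. Without 1 library, the cartilage median ran from 0.32 to 0.49, the basement membrane median from 0.18 to 0.30 and the fibrillar median from -0.16 to 0.04. The beaded filament median ran from 0.084 (without wild-type replicate 2) to 0.54 (without wild-type replicate 3). The change of Col8a2 ran from -0.021 without mutant replicate 2 to 0.33 without mutant replicate 1. Summed strand columns put the fibrillar share in wild-type libraries at 0.249%. With the longest transcript as length, basement membrane members held 7.87% of the family level, and the ratios were 0.268 for Col1a1 to Col1a2, 1.33 for Col6a2 to Col6a3, 2.31 for Col11a1 to Col11a2 and 0.221 for Col5a1 to Col5a2. These come from the change of length alone. Several members under 1 RPKM rest on few reads, such as Col22a1 on 2 to 27 reads per library, which limits what this depth can show. The standard error of the log2 change reached up to 0.53 (Col22a1). Not all of them are so low, and Col6a6 had 139 to 220 reads per library.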
